A study of Mus musculus with 9 samples.

Results

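Keratins and cornified envelope genes are keratinocyte genes, and they were measured here in melanocytes sorted by flow cytometry from mouse epidermis. Members were all genes of the table whose symbol names a keratin (Krt), a small proline-rich protein (Sprr) or a late cornified envelope protein (Lce), together with Lor, Flg, Ivl, Sbsn, Dsg1a, Dsc1 and Calml3. This gave 56 of 16299 genes, of which 37 were keratins, 10 were Sprr genes, 2 were Lce genes and 7 were the genes listed by name. RNA sequencing was done on 3 groups of 3 libraries. Knockout back libraries came from back epidermis and knockout tail libraries from tail epidermis of Spry1flox/flox k14-Cre-ERT2 mice, which carry floxed Spry1 and express a ligand-dependent Cre recombinase from the keratin 14 promoter. Control tail libraries came from tail epidermis of Spry1flox/flox mice without the Cre, so every group carries the floxed allele. Spry1 restrains signalling downstream of receptor tyrosine kinases. The promoter that drives the Cre is that of Krt14, itself a member, so deletion is aimed at keratinocytes and not at the sorted cells. The sources used here do not give the age or sex of the mice or any agent used to activate the Cre. Nothing in the labels says that each library came from its own animal, so the spread behind every p-value is that between libraries and may be technical.

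Keratins are the intermediate filament proteins of epithelial cells and assemble as pairs of one type I and one type II chain. Basal keratinocytes make Krt5 with Krt14, and cells that leave the basal layer switch to Krt1 with Krt10. Krt6, Krt16 and Krt17 are made in the follicle and nail and are induced in wounded or proliferating epidermis. Hair fibres and the inner root sheath have keratins of their own, and hair-type keratins such as Krt31 and Krt36 are also used as markers of the scale regions of mouse tail epidermis. The cornified envelope is the cross-linked protein shell of the outermost cells, and loricrin (Lor), involucrin (Ivl) and the Sprr and Lce proteins are built into it. Keratin members lay on chromosome 11, with 17 of them, and on chromosome 15, with 20, and 15 members lay in the epidermal differentiation complex of chromosome 3.

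The results below turn on a few keratins, and 2 of these are close copies, so their coding sequences are given first where they differ most. Krt6a (chromosome 15, 101689910 to 101694307, minus strand, GRCm38, ENSMUSG00000058354.7) and Krt6b (chromosome 15, 101676023 to 101680287, minus strand, ENSMUSG00000023041.7) had 97.8% identity over 1659 aligned coding bases. Of their 37 differing bases, 17 fell within bases 751 to 870 of the coding sequence, printed 5′ to 3′ from the GENCODE vM21 transcripts with the differing bases in capitals:
Krt6a: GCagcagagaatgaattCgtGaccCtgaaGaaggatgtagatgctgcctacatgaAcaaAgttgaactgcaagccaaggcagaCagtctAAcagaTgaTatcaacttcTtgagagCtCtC
Krt6b: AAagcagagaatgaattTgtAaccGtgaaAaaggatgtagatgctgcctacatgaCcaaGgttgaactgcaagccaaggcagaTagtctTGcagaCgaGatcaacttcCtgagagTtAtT
Among windows of 150 bases, the read length in the labels, 18.5% of those in the Krt6a transcript were also in Krt6b. The sources used here do not say how reads with more than one match were counted, so the split of counts between these copies is uncertain. Sprr2a1 and Sprr2a2 had identical coding sequences, and 84.7% of the windows of Sprr2a1 were also in Sprr2a2. In the second control tail library Sprr2a1 had 2983 normalised counts and Sprr2a2 had 0.

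Promoters are shown for Krt77, which was called higher in back, and for Krt36, a marker of tail scales whose level parted the knockout tail libraries, from 250 bases before to 50 bases after the transcript start (RefSeq, GRCm38.p6, minus strand). Krt77 lies at chr15:101869656-101869955 and Krt36 at chr11:100105577-100105876. Capitals mark matches to TATANA on either strand, where matches may overlap:
Krt77: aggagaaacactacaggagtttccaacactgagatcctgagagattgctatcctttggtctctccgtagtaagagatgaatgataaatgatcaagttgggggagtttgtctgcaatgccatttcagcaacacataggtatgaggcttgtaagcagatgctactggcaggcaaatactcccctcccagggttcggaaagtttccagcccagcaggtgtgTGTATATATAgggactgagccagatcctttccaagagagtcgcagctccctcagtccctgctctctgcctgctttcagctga
Krt36: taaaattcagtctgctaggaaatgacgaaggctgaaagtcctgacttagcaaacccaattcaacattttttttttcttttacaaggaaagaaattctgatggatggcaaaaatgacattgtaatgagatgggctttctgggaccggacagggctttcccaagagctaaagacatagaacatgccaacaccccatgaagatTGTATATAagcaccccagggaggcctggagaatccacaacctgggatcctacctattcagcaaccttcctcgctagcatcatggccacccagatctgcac
Of 40 members with a promoter in that table, 62.5% held TATANA, against 24.7% of all 32851 promoters in the table. The AP-1 motif TGANTCA, searched on both strands, was in 25.0% of the member promoters and 7.8% of all promoters, and in neither promoter shown. A match is a description of letters, not a shown binding site.

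Values by library are normalised counts, which are whole counts recovered from the deposited log2 values and divided by each library's size factor. Differences between groups are given on the deposited log2 scale, from which a shift between 2 sets of libraries had been removed before deposit. The third knockout back and the third knockout tail library formed the smaller set, and the other 7 libraries the larger. Recovered totals were 50084651 to 59743575 counts in knockout back, 48264763 to 69753220 in knockout tail and 69146300 to 70629919 in control tail. In the first and second knockout back libraries 4628 and 6127 genes had 0 counts, against 854 to 1739 in the other 7 libraries. Melanocyte markers were high in all libraries, with 7 of 8 listed markers summing to 2628281 to 3944545 normalised counts. Fewer keratinocytes in a sort and less RNA per keratinocyte cannot be told apart in these bulk libraries.

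Keratin and envelope transcripts were a small share of the RNA in every library, and that share varied widely between libraries of a group. The 56 genes held 0.392%, 0.48% and 0.859% of all counts in knockout back, 0.191%, 0.112% and 2.01% in knockout tail, and 0.434%, 0.964% and 0.189% in control tail. The third knockout tail library was the highest of the 9 and the second knockout tail library the lowest, so the groups overlapped. Detection differed in the same uneven way: 22, 31 and 49 of the 56 members had a count in knockout back, 36, 34 and 46 in knockout tail, and 45, 49 and 39 in control tail. Counts were present in all 9 libraries for 12 members, and the other 44 were at 0 in at least 1 library. The highest library was the third knockout tail library for 20 members, the second control tail library for 12 and the second knockout back library for 10.

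**Figure D1:**
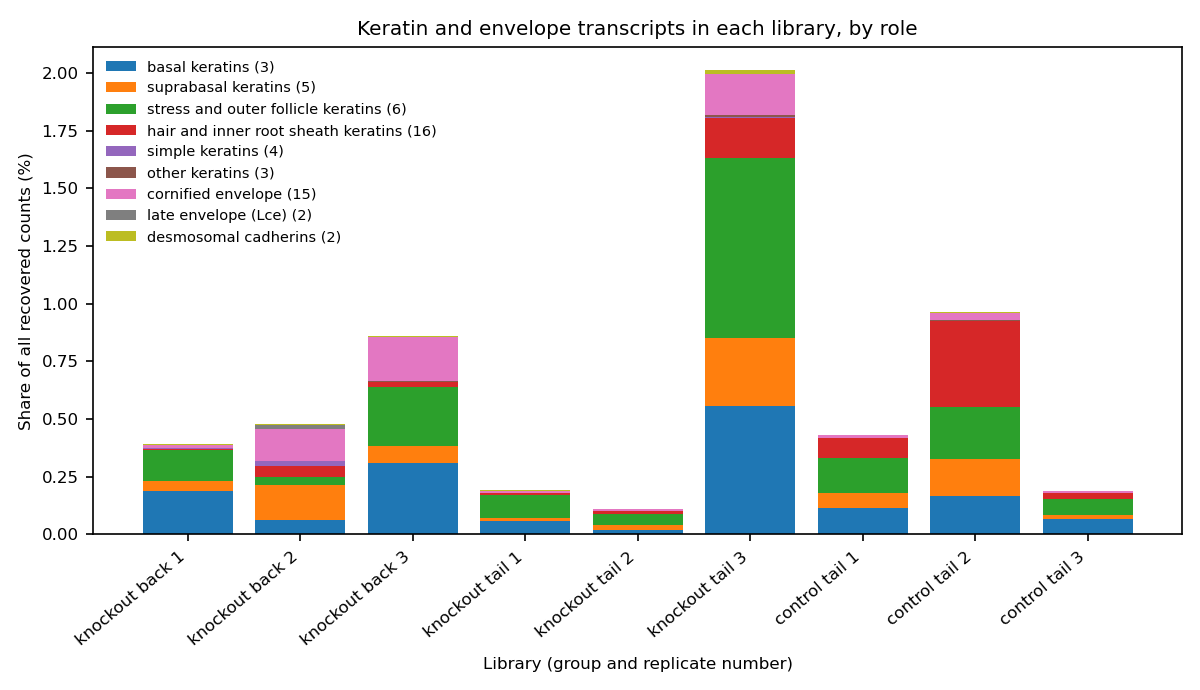
Share of all recovered counts (%, vertical axis) held by each role of the 56 genes in the 9 libraries, as stacked bars with the number of genes per role in the legend. The third knockout tail library reached 2.01%, and the other bars lie between 0.112% and 0.964%.

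Among other keratinocyte genes, the sums of the junction and the barrier genes also overlapped between the groups. The 10 listed junction genes, such as the desmosomal plaque gene Dsp, summed to 48842, 67006 and 80484 normalised counts in knockout back, 30119, 13856 and 178286 in knockout tail, and 38911, 72261 and 15134 in control tail. The 17 barrier genes, such as the transglutaminase gene Tgm1, summed to 77170, 183980 and 66451 in knockout back, 20526, 11820 and 147517 in knockout tail, and 41582, 95569 and 31210 in control tail. None of these 27 genes, of the 10 basal genes or of the 10 keratinocyte transcription factor genes passed the test in any comparison. Sums of the 10 basal genes were 44538, 49802 and 82580 normalised counts in knockout back and 44580, 37570 and 104870 in knockout tail. In control tail they were 34728, 32272 and 29630, below every library of both knockout groups. Cdh3 made up much of these sums, with 24502, 30895 and 38987 in knockout back and 31132, 27162 and 40128 in knockout tail. It had 16891, 7610 and 13199 in control tail, and none of the other basal genes had that order by itself.

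Basal keratins were present in every library. Krt14 (chromosome 11, 100203162 to 100207548, minus strand, ENSMUSG00000045545.8), the type I chain of basal cells, had normalised counts of 65570, 29212 and 82980 in knockout back, 26753, 8333 and 173342 in knockout tail, and 49089, 68147 and 23434 in control tail. Its partner Krt5 had 10783, 3366 and 31872 in knockout back, 3217, 1252 and 48852 in knockout tail, and 6643, 8583 and 5543 in control tail. Both were highest in the third knockout tail library and lowest in the second, and the groups overlapped. Per kilobase of exon the level of Krt14 was 3.25 to 10.8 times that of Krt5 in all 9 libraries. Krt15, a keratin of basal and follicle stem cells, had 36642, 4514 and 65549 in knockout back, 3969, 1117 and 87662 in knockout tail, and 6123, 21256 and 7992 in control tail. Across all 56 members the level per kilobase, as a mean over 9 libraries, was highest for Krt14 at 33299 and next for Krt17 at 26170.

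Suprabasal keratins differed from each other in the libraries that held them. Krt10 had normalised counts of 12128, 54114 and 16126 in knockout back, 3502, 5620 and 52497 in knockout tail, and 15138, 42220 and 4950 in control tail. Its partner Krt1 had 0, 7778 and 16363 in knockout back, 781, 5621 and 55266 in knockout tail, and 1459, 4303 and 117 in control tail. Krt1 was thus at 0 in the first knockout back library beside 12128 normalised counts of Krt10, and the groups overlapped for both genes. Per kilobase the level of Krt10 was 1.98 to 9.37 times that of Krt1 in knockout tail and 20.5 to 88.7 times in control tail, and these ranges did not overlap. The ratio of 88.7 came from the control library with 117 normalised counts of Krt1. Ratios of Krt36, Krt6a, Krt6b and Krt16 to Krt14 did not overlap between the tail groups either. The ratios of Krt2, Krt10, Krt17, Krt77, Krt79 and Krt84 to Krt14 did overlap between the tail groups. So did those of Krt14 to Krt5, and of Krt2 and Krt77 to Krt10. How often gene pairs other than the keratin pairs examined here separate was not computed. In knockout back the ratio of Krt10 to Krt1 was 14.5 and 2.06 in the second and the third library.

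Krt77 had the largest difference between back and knockout tail among the 56 members. Krt77 (chromosome 15, 101858731 to 101869705, minus strand, ENSMUSG00000067594.6), a type II chain related to Krt1, had normalised counts of 7547, 16675 and 2709 in knockout back, 0, 0 and 0 in knockout tail, and 0, 415 and 3 in control tail. Each back library lay above each of the 6 tail libraries. Against knockout tail the mean was at least 2590-fold higher, taking the floor of 3 counts in a library as the tail level. That bound covers counting error only, and not the spread between libraries, which ran from 0 to 415 within control tail. On the deposited scale Krt77 rose by 4.92 ± 0.66 against knockout tail (SE; limma adjusted p = 0.0221) and by 4.29 ± 0.66 against control tail (adjusted p = 0.0398), 3 libraries per group. The call against knockout tail ended with limma-voom on recovered counts (adjusted p = 0.0649), without both sparse back libraries (0.174), and without 5 of the 9 libraries in turn, namely any knockout tail library (up to 0.0947), the first control (0.0561) or the first back library (0.068). The call against control tail ended without both sparse back libraries (adjusted p = 0.321), with limma-voom (0.0961, or 0.0558 with the library set as a term), and without any library but the third knockout back (up to 0.138).

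Krt23 and Krt79 had the same order. Krt23, a type I keratin grouped here with those of simple epithelia, had normalised counts of 1498, 6959 and 808 in knockout back, 0, 0 and 0 in knockout tail, and 98, 254 and 0 in control tail. It rose by 3.39 ± 0.60 in knockout back against knockout tail (SE; limma adjusted p = 0.0388, 3 libraries per group). By the same floor, which covers counting error only, the mean was at least 890-fold higher. The call of Krt23 was lost in 13 of 19 other fits, among them those without any single library other than the second or the third back library. Against control tail its difference of 2.73 had an adjusted p of 0.0549.

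Krt79, a keratin of the upper follicle and the sebaceous duct named after its values were seen, had normalised counts of 41758, 16934 and 18917 in knockout back, 2475, 261 and 15931 in knockout tail, and 2499, 9199 and 1512 in control tail. All 3 back libraries lay above all 6 tail libraries, with a difference of 2.93 ± 0.94 against knockout tail (SE; limma adjusted p = 0.128). Sebocyte markers were also higher in part of the back libraries: the 5 listed genes summed to 172429, 216098 and 36443 normalised counts in knockout back, 33653, 29780 and 20030 in knockout tail, and 37576, 42457 and 39611 in control tail. Nearly all of each sum was Mgst1 and Plin2, while Scd3, Mc5r and Awat2 stayed at or below 1744 in every library. Of these 5, Mgst1 and Plin2 rose in knockout back against knockout tail, by 2.08 and 1.72 (limma adjusted p of 0.0375 and 0.0345). Their part in the Krt79 difference was not tested. Krt23, Krt77 and Krt79 were the 3 members with every back library above every tail library, and 3.28% of all genes had that order. Against knockout tail alone the same 3 members did not overlap and were higher (4.55% of all genes), and 0 members did not overlap and were lower (10.4%).

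Krt36, Krt84 and Krt2 had counts in all 3 control tail libraries and in 1 knockout tail library, and were at or near 0 in the other knockout tail libraries. Krt36 (chromosome 11, 100102007 to 100105626, minus strand, ENSMUSG00000020916.8), a hair-type keratin of tail scale epidermis, had normalised counts of 11, 1619 and 71 in knockout back, 0, 0 and 71026 in knockout tail, and 22867, 125500 and 10897 in control tail. Krt84, a hair-type type II chain, had 0, 3237 and 18 in knockout back, 0, 3 and 26107 in knockout tail, and 13311, 54632 and 2454 in control tail. Krt2, a suprabasal keratin of mouse tail, ear and sole skin, had 0, 5212 and 3048 in knockout back, 0, 0 and 52944 in knockout tail, and 17554, 45025 and 2489 in control tail. The knockout tail libraries 1 and 2 thus had at most 3 normalised counts of any of these genes, while they held 26753 and 8333 normalised counts of Krt14.

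Set against Krt14 in the same library and per kilobase, Krt36 was at 0.000173, 0.0583 and 0.000894 in knockout back, 0.0, 0.0 and 0.431 in knockout tail, and 0.49, 1.94 and 0.489 in control tail. A count of 0 allows up to 3 counts in a library. Sex-linked transcripts also parted knockout tail libraries 1 and 2 from the other: Xist, the transcript of the inactive X, had normalised counts of 1414, 1481 and 2645 in knockout back, 4, 16 and 7358 in knockout tail, and 4223, 1416 and 3973 in control tail. The Y-linked gene Eif2s3y had 3527, 2974 and 3843 in knockout back, 3948, 4793 and 0 in knockout tail, and 121, 0 and 7 in control tail. Their part in the keratin pattern was not tested.

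Neither comparison passed for these genes. In knockout tail against control tail the log2 difference of Krt36 was -4.61 ± 1.89 (SE; limma adjusted p = 0.934) and that of Krt2 was -4.05 ± 1.66 (adjusted p = 0.93), with 1 of 3 knockout tail libraries above 2 of the 3 controls for Krt36. In knockout back against control tail Krt36 differed by -5.96 ± 1.89 (adjusted p = 0.0968) and Krt84 by -4.45 ± 1.85 (adjusted p = 0.171). The difference of Krt2 there was -3.86 ± 1.66 (limma adjusted p = 0.184), with the groups overlapping. All 3 back libraries lay below all 3 controls for Krt36, a lower non-overlap shared by 15.6% of all genes, and for Krt32 and Krt35, named after their values were seen. Without the smaller library set Krt36 fell by 5.32 in knockout back (adjusted p = 0.0361).

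**Figure D2:**
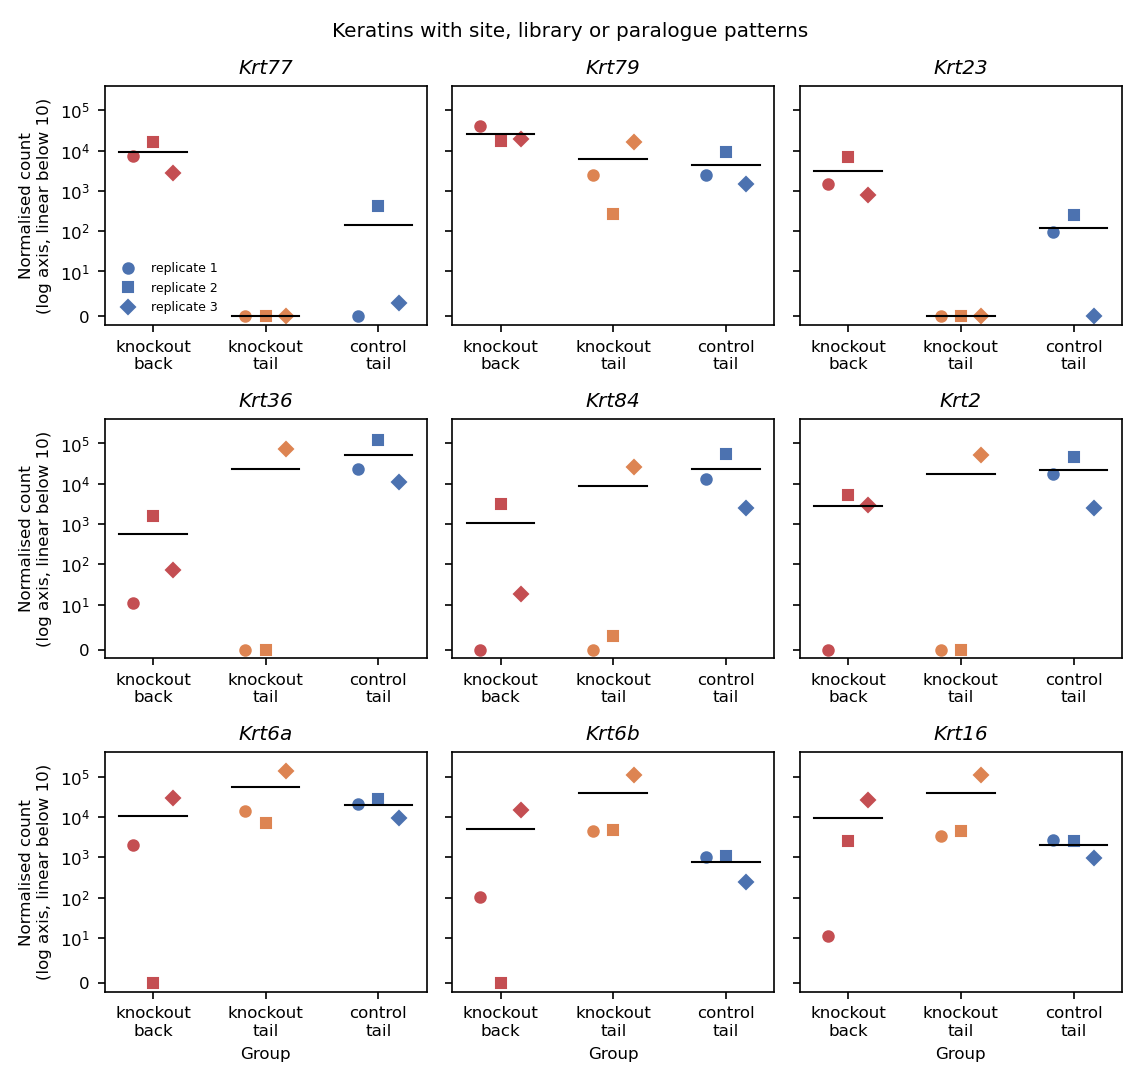
Normalised counts (vertical axis, logarithmic above 10 and linear below) of 9 keratins in knockout back, knockout tail and control tail, with a point per library shaped by replicate number and a black line at the group mean. Krt77, Krt79 and Krt23 are highest in back, Krt36, Krt84 and Krt2 are at 0 to 3 in knockout tail libraries 1 and 2, and Krt6b in knockout tail lies at 4429 and above, against 1063 and below in control tail.

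Of the 6 stress and outer follicle keratins, 5 had a negative difference in knockout back against knockout tail, and Krt6b was the 1 called lower. Krt6b, a keratin induced by wounding, had normalised counts of 101, 0 and 15155 in knockout back, 4429, 4888 and 112232 in knockout tail, and 1036, 1063 and 244 in control tail. The knockout back and knockout tail ranges overlapped through the third back library, which lay below the third tail library of the same library set, as the other back libraries lay below the other tail libraries. On the deposited scale the log2 difference of Krt6b in knockout back against knockout tail was -3.55 ± 0.40 (SE; limma adjusted p = 0.0211, 3 libraries per group). With the removed shift put back the same difference had an adjusted p of 0.367, and with limma-voom 0.55 (0.281 with the library set as a term). The call was also lost without both sparse back libraries (0.155), without any knockout tail library (up to 0.0777) and without the first control (0.0512).

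Its close copy Krt6a had 1976, 0 and 29790 normalised counts in knockout back, 14505, 7289 and 141159 in knockout tail, and 21232, 28780 and 9447 in control tail. The difference of Krt6a in knockout back was -3.26 ± 0.86 against knockout tail (SE; limma adjusted p = 0.0879) and -3.92 ± 0.86 against control tail (adjusted p = 0.0551). The balance of the copies did not overlap between the tail groups, which was seen after the values were known: per kilobase the level of Krt6b was 0.33, 0.726 and 0.86 times that of Krt6a in knockout tail, and 0.0528, 0.04 and 0.0279 times in control tail. In knockout back the ratio was 0.0554 and 0.55 in the first and the third library, and both genes were at 0 in the second. The sequence windows shown above mark where reads of these copies can be told apart, and a share of reads cannot be assigned to either.

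In knockout tail against control tail Krt6b lay higher in all 3 knockout libraries, with a log2 difference of 1.97 ± 0.40 (SE; limma adjusted p = 0.589), which did not pass. Krt16, a type I keratin often made with Krt6 in wounds, had 11, 2485 and 26101 normalised counts in knockout back, 3305, 4609 and 109054 in knockout tail, and 2757, 2484 and 982 in control tail. Its 3 knockout tail libraries also lay above the 3 controls, and its difference in knockout back against knockout tail was -2.15 ± 0.70 (SE; limma adjusted p = 0.131). Krt17 did not follow this order, with 37842, 2737 and 58538 in knockout back, 30764, 9600 and 55736 in knockout tail, and 56256, 88940 and 24893 in control tail. In knockout tail against control tail 3 of 56 members, Krt6b, Krt16 and Sprr2h, did not overlap and were higher, against 9.7% of all genes, and 1 member, Krt32, did not overlap and was lower, against 9.31%. Sprr2h and Krt32 fall outside the naming rule and are named for this count.

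Hair and inner root sheath keratins apart from Krt36 and Krt84 were each high in few libraries. Krt31, a hair cortex and tail scale keratin, had normalised counts of 0, 4756 and 0 in knockout back, 0, 1938 and 0 in knockout tail, and 0, 11474 and 171 in control tail. Krt33a, another cortex keratin with 93.5% coding identity to Krt31, had 4, 7829 and 0 in knockout back, 0, 1409 and 0 in knockout tail, and 66, 9402 and 60 in control tail. In each group the second library was highest and the others were at 171 normalised counts or below. The 5 inner root sheath members, Krt25, Krt27, Krt28, Krt71 and Krt73, summed to 0, 0 and 10737 in knockout back, 1575, 568 and 798 in knockout tail, and 10309, 681 and 62 in control tail. They were thus high in other libraries than the cortex keratins, namely the third back and the first control library. None of the 16 members of this role passed in any comparison, and 15 of the 16 had a negative difference in knockout tail against control tail (median -0.67, against -0.05 over all genes). The 16 members summed to 47563, 217546 and 15133 normalised counts in control tail, so the second control library weighs most. Their differences are not independent, and the share of all genes with a negative difference was not computed.

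Simple epithelial keratins were at 0 in many libraries, and the partners Krt8 and Krt18 were often not found together. Krt8 had normalised counts of 0, 5788 and 183 in knockout back, 0, 0 and 330 in knockout tail, and 5, 70 and 0 in control tail. Its usual partner Krt18 had 1395, 0 and 297 in knockout back, 0, 0 and 615 in knockout tail, and 0, 96 and 0 in control tail. The second back library held Krt8 without Krt18, and the first back library held Krt18 without Krt8. Merkel cells also make this pair, and 0 of the 4 listed Merkel markers were in the table. Krt7 reached at most 451 normalised counts in any library. Krt24 reached 3512 in the third knockout tail library and was at 0 in 4 libraries, and Krt42 and Krt90 stayed at or below 247 in all 9. In knockout back against control tail Krt24 differed by -2.14 ± 0.70 and Krt90 by -0.96 ± 0.40 (SE; limma adjusted p of 0.102 and 0.17).

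Envelope genes were most abundant in the second and the third back library and in the third knockout tail library. Loricrin, the main protein of the envelope, had normalised counts of 39, 46707 and 368 in knockout back, 54, 0 and 1309 in knockout tail, and 58, 242 and 29 in control tail. The second back library also led for Lce1c, with 10042 against 242 or fewer elsewhere, and for Flg, the gene of the filament-aggregating protein filaggrin, with 0, 10615 and 3330 in knockout back, 0, 8 and 2781 in knockout tail, and 5, 466 and 2 in control tail. A single library therefore set the knockout back mean of Lor, 15705 ± 26849 (SD, n = 3).

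The third back library led instead for the 3 Sprr2a genes, which together had 0, 4229 and 89008 normalised counts in knockout back, 360, 2753 and 19417 in knockout tail, and 956, 3009 and 650 in control tail. Sprr1a, induced in stressed and differentiating epidermis, had 0, 1851 and 6603 in knockout back, 2870, 708 and 17344 in knockout tail, and 1645, 5503 and 1704 in control tail. Sprr1b had 0, 0 and 3941 in knockout back, 943, 1021 and 17904 in knockout tail, and 727, 2009 and 56 in control tail. The difference of Sprr1b in knockout back against knockout tail was -2.36 ± 0.58 (SE; limma adjusted p = 0.0751), and against control tail it was -1.87 ± 0.58 (adjusted p = 0.0909).

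Sbsn, the gene of suprabasin, a protein of differentiating keratinocytes, had 8217, 12393 and 4436 normalised counts in knockout back, 476, 226 and 7097 in knockout tail, and 1117, 2275 and 814 in control tail. Each back library lay above each control library, and the third knockout tail library lay within the back range. Its difference of 2.33 ± 0.79 against knockout tail did not pass (SE; limma adjusted p = 0.14), and without the smaller library set Sbsn rose by 3.81 (adjusted p = 0.0147). Involucrin had 0, 0 and 1830 in knockout back, 0, 0 and 1253 in knockout tail, and 85, 145 and 0 in control tail. Calml3, a calmodulin-like protein of epithelia, had 2, 2582 and 1085 in knockout back, 551, 448 and 7962 in knockout tail, and 1628, 1509 and 550 in control tail.

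Desmosomal cadherins of the upper layers hold differentiated keratinocytes together. Dsg1a had 2303, 4904 and 467 normalised counts in knockout back, 153, 190 and 4896 in knockout tail, and 464, 1761 and 128 in control tail. Dsc1 had 664, 0 and 699 in knockout back, 0, 0 and 4103 in knockout tail, and 27, 171 and 0 in control tail. For neither gene did the groups separate, and neither passed. Lce3c was at 0 in 6 of 9 libraries and reached 939 in the third knockout tail library, with a difference of -0.96 ± 0.35 in knockout back against knockout tail (SE; limma adjusted p = 0.162).

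**Figure D3:**
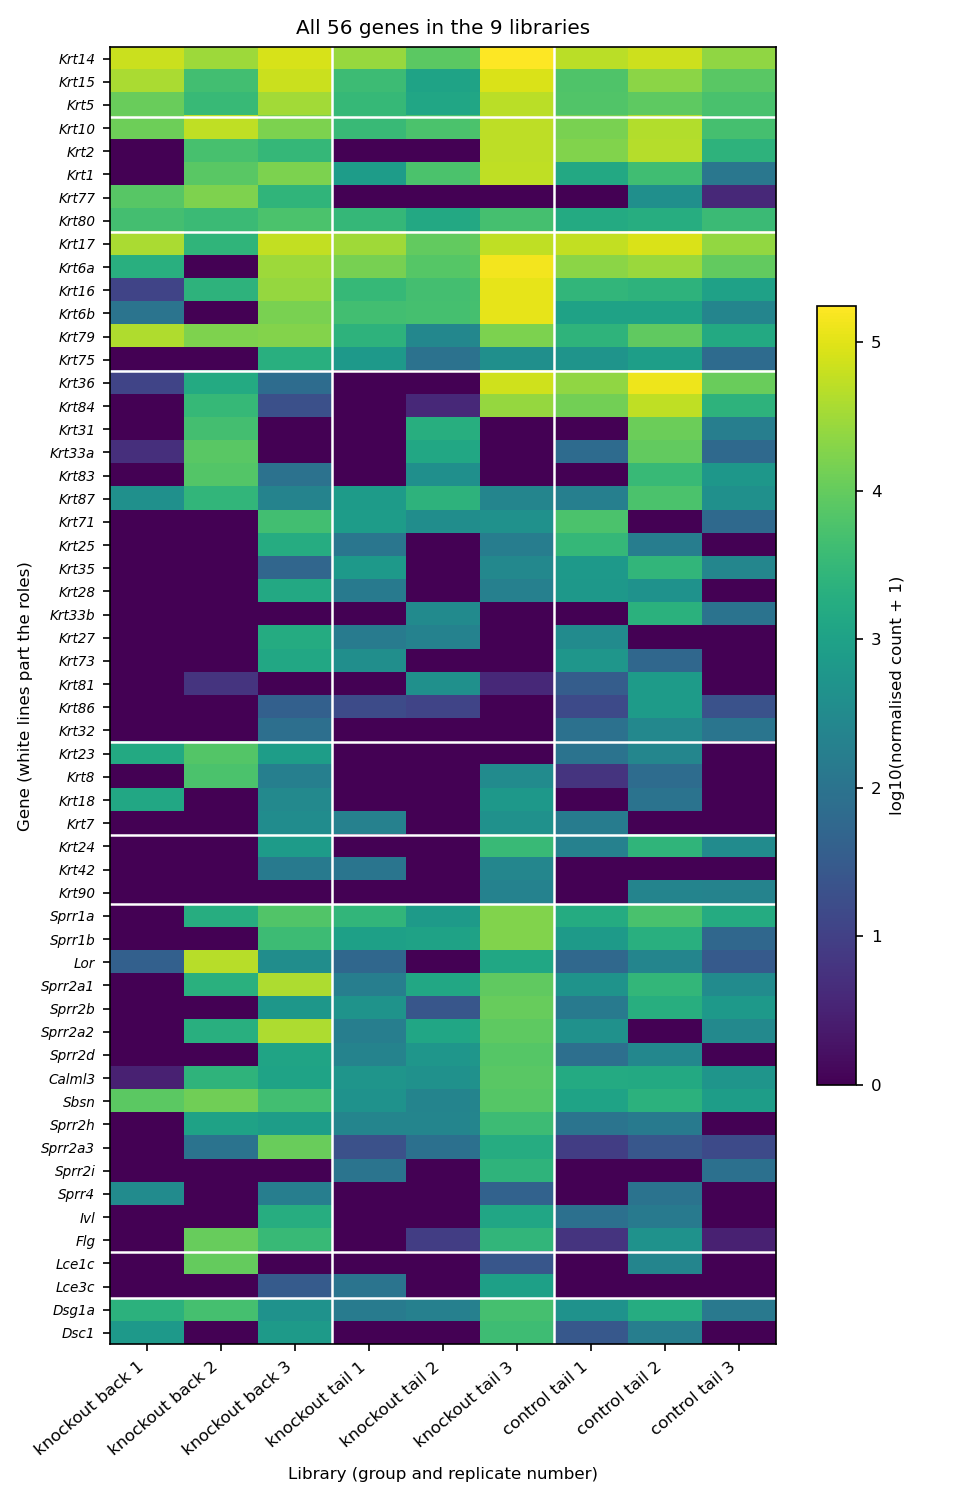
Normalised counts of all 56 genes (rows, parted by role) in the 9 libraries (columns), coloured by log10 of the normalised count plus 1. Krt14, Krt15 and Krt5 have counts in every library, whereas 44 genes are at 0 in at least 1, and the first back library has 34 genes at 0.

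Over all genes, the comparison of knockout back with knockout tail, which asks about body site within one genotype, called 244 of 16299 genes (1.5%). Every back library was high in both Xist and Eif2s3y, and each knockout tail library in either of them. Site and sex composition thus cannot be told apart in it. Of the 56 members 2 were called higher, Krt23 and Krt77, against 0.411% of all genes, and 1 lower, Krt6b, against 1.09%, and 12 had an unadjusted p under 0.05. The median member difference was 0.17, against -0.18 over all genes tested. Its sign turned with limma-voom on recovered counts, to -0.49 beside -0.79 over all genes. By role the median was 0.72 for basal, 0.61 for suprabasal, -1.31 for stress and outer follicle and 0.14 for cornified envelope members. Over all genes the count of 244 became 31 with the removed shift put back, 0 without both sparse back libraries and 1972 without the third back library. The number of called members was 1 with the removed shift put back, 0 with limma-voom, 0 without both sparse back libraries, and 0 to 7 when single libraries were left out, with 0 without the first control or any knockout tail library, 1 without the first back library and 7 without the third.

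Knockout tail against control tail, which asks about the epidermal Spry1 deletion at one site, called 0 of 16299 genes (0.0%) and 0 of 56 members by limma. The 3 control libraries had 1416 to 4223 normalised counts of Xist, and knockout tail libraries 1 and 2 had 4 and 16. Eif2s3y was at 3948 and 4793 in those 2 and at most 121 in control tail. Deletion and sex composition thus cannot be fully told apart in it. At an unadjusted p under 0.05 there were 814 genes and 5 members, and limma-voom also called 0. The count over all genes was 10 with the library set as a term and 8 with the removed shift put back, with 0 members among them in either fit. The median member difference was -0.45, against -0.05 over all genes, and 41 of 56 members had a negative difference. The median was -0.08 without the second control library, -0.75 without the third and -1.23 with limma-voom and the library set as a term. With the removed shift put back the median was -0.10 and 27 of the 56 differences were positive. Before the shift was removed, the third back and the third tail library averaged above the other 7 for 44 of 56 members, with a median shift of 1.35 on the log2 scale, against 0.16 over all genes. That removed shift exceeded 1 in size for 67.9% of members and 18.3% of all genes, and since the smaller set held no control library, the deposited differences of these genes from control depend on its removal.

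Knockout back against control tail differs in site, genotype and sex-linked transcripts together, and these cannot be told apart in it. It called 163 of 16299 genes (1.0%) and 1 of 56 members, Krt77, against 0.387% of all genes called higher, with a median member difference of -0.29 against -0.23 over all genes. With the removed shift put back that median was 0.16, and with limma-voom it was -1.13, beside -1.0 over all genes. Krt23, Krt77, Krt79, Krt80 and Sbsn did not overlap and were higher in back, 5 of 56 members against 7.41% of all genes. Krt80 is outside the naming rule and is named for this count. The comparisons share libraries, so their results are not independent of each other.

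**Figure D4:**
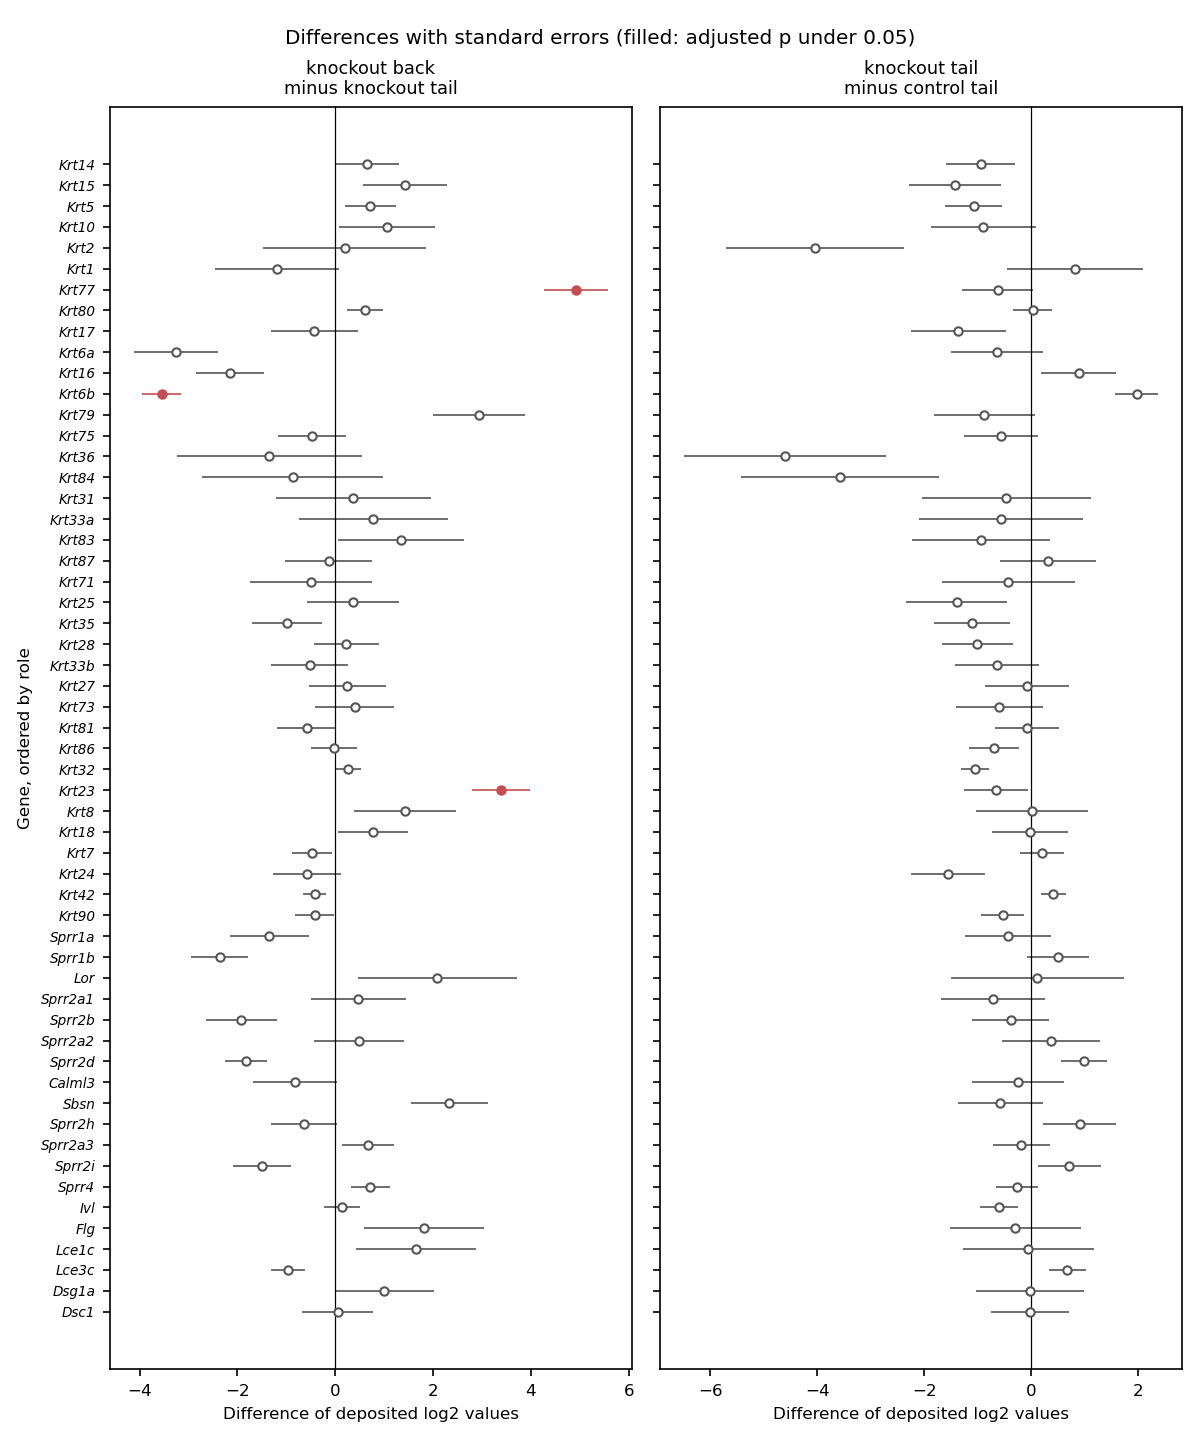
Difference of deposited log2 values (horizontal axis) with standard error bars for each of the 56 genes (rows), for knockout back minus knockout tail on the left and knockout tail minus control tail on the right. Filled red points mark an adjusted p under 0.05, which are Krt77 (4.92), Krt23 (3.39) and Krt6b (-3.55) on the left and none on the right.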

How the data were processed

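RNA was measured in 9 libraries; Trizol-extracted RNA was amplified with a SMART-Seq v4 kit and sequenced as paired reads of 150 bases, per the labels' protocols, and the submitters' processing notes name DESeq2 and GRCm38 without role. Not given in the sources used here were aligner, counter, strand setting and filters. The deposited log2 values followed a variance-stabilising curve with a value of 7.98 at 0 counts. Library 3 of knockout tail and library 3 of knockout back averaged the same as the other 7 in each gene, to within 7.14e-09 (next best of 255 splits: 1.5), so a shift between these sets had been removed. Undoing both gave whole counts, within 0.01, for 16298 genes (all but Pmel); on simulated data 1500 of 1500 genes were recovered, with curve, sets and size factors given. A log2 difference on this curve understates changes of genes with few counts. Floors cover counting error only.

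Differences were tested with limma 3.58.1 (R 4.3.3, trend and robust moderation, group only, all 9 libraries, all genes), with Benjamini-Hochberg adjustment and a threshold of 0.05. The fit was tested on simulated data. Members and lists were chosen with earlier results of these data known. Named were members called in any comparison, the 4 highest per role by level per kilobase of exon (GENCODE vM21), the partner pairs, the genes listed by symbol, and Krt31 and Krt36; differences are printed for those with an unadjusted p under 0.05. Other genes named by count or pattern were chosen after their values were seen. Replicate numbers were not used as pairs. Limma-voom used a trimmed mean of M values. The alternatives were the replicate block, the library set as a term, the shift put back, limma-voom, quantile normalisation, a mean value of at least 9, no moderation options, and leaving out libraries; limma-voom with the set as a term was added after seeing the data.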

Additional observations from a re-analysis of the deposited data

How the results depend on the processing

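For all genes, 244 calls in back against knockout tail became 21 with the replicate block, 71 with the library set as a term, 31 with the shift put back, 1637 without the smaller set, 0 without the sparse back libraries, and 3 to 1972 with single libraries left out. Against control tail 163 became 42, 545, 217, 2371, 0, and 0 to 2804 under the same settings, and 322 with limma-voom, 579 with quantile normalisation, 558 with a mean value of at least 9 and 471 with no moderation options. Of 57 repeats of the 3 counts of called members, 32 were unchanged or stayed within 1.5 times. These include all 19 repeats of knockout tail against control tail, where 0 stayed 0. The remaining repeats, all of comparisons with knockout back, fell in 19 cases and rose in 6. For knockout back against knockout tail the count of 3 became 1 with the removed shift put back, 0 with limma-voom (1 with the library set as a term, chosen after seeing the data), 0 without the first and second back libraries, and 0 to 7 with single libraries left out. For knockout back against control tail the count of 1 became 2 with the library set as a term, 4 with quantile normalisation, 3 with a mean value of at least 9, 6 without the smaller library set, 0 with limma-voom (1 with the set term), 0 without the first and second back libraries, and 0 to 6 with single libraries left out. The 1 member called there with limma-voom and the set term was called lower in back, so it was not Krt77. For knockout tail against control tail the count of called members was 0 in all 19. The median member difference of knockout back against knockout tail, 0.17, became -0.49 with limma-voom, -0.33 with limma-voom and the set term and -0.04 without the smaller set, and ranged from -0.22 to 0.21 with single libraries left out. That against control tail, -0.29, became 0.16 with the shift put back, -1.13 with limma-voom (median of all genes -1.0) and -1.25 with the set term added, and ranged from -0.64 to -0.10 with single libraries left out. That of knockout tail against control tail, -0.45, became -1.23 with limma-voom and the set term, and ranged from -0.75 to -0.08. The difference of Krt6b in knockout back against control tail, -1.58 ± 0.40 (SE; limma adjusted p = 0.06), became 0.11 with the shift put back (adjusted p = 0.981). In deposited values the third knockout tail library was highest for 2 members in place of 20. The numbers were not taken to pair the libraries, since not every same-numbered pair had a deviation correlation over 0.1. Over all genes these ran from -0.703 to 0.076 in deposited values and from -0.135 to 0.335 with the shift put back, with 0 and 2 of 9 over 0.1. Over the members they ran from -0.691 to 0.494 and from -0.237 to 0.472, with 3 and 6 of 9 over 0.1. Of the 18 pairs with unlike numbers, 8 and 4 were over 0.1 over the members, and 4 and 2 over all genes. The values of -0.703 and -0.691 are those of the third knockout tail and back libraries, whose deposited values carry the shift removal. Whether a shared number marks paired libraries was not settled by these values. With the replicate block, 2 members were called for back against tail, Krt23 no longer among them (adjusted p = 0.0915), and 1 against control tail. The cause of these changes was not tested. Depth limits genes at 0: a count of 0 allows up to 3 counts, or 2.37 to 3.51 normalised counts, in a library. Fits with 1 library left in a group assume that it varies like the other groups.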

Other observations

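Some hair cortex keratins were highest in libraries of one replicate number, a pattern noticed after the values were seen. Krt31, Krt33a, Krt81, Krt83 and Krt87 were highest in the second library of all 3 groups, 5 of 56 members, and 3.27% of all genes had that order. The other cortex and cuticle members, Krt32, Krt33b, Krt35 and Krt86, were at 0 in the second back library and did not have that order. Krt83, a type II cortex keratin, had normalised counts of 0, 7014 and 95 in knockout back, 0, 413 and 0 in knockout tail, and 0, 3337 and 596 in control tail. Krt87 had 420, 2770 and 224 in knockout back, 757, 2420 and 243 in knockout tail, and 178, 5715 and 418 in control tail. The 9 cortex and cuticle members summed to 424, 22375 and 493 in knockout back, 1468, 6943 and 524 in knockout tail, and 1077, 36733 and 1720 in control tail. For the first library of all 3 groups the count was 0 members (2.34% of all genes), and for the third it was 1, Krt80 (7.5% of all genes). The labels do not say what a shared number means.

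Levels of Krt16 set against Krt14 also parted the tail groups, chosen after seeing the values. Per kilobase the ratio was 0.139, 0.621 and 0.707 in knockout tail and 0.0631, 0.0409 and 0.0471 in control tail. For Krt17 against Krt14 it was 1.3, 1.31 and 0.364 in knockout tail and 1.3, 1.48 and 1.2 in control tail, so these ranges overlapped.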
